A study of Mus musculus with 30 samples.

Results

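Early fluoxetine in *Arid1b* heterozygous mice was examined in whole brain at postnatal day 120 (P120), by comparing 5 libraries of fluoxetine-treated heterozygotes (HT-Flx) with 4 of vehicle-treated heterozygotes (HT-Veh). These are 9 of the 30 libraries of the series and were chosen by their labels, with 1 of the 5 libraries labelled HT-Veh left out. HT mice were C57BL/6N males of a single CRISPR-made line, in which 1 copy of *Arid1b* carries a change early in exon 5 that cuts the protein short. From P3 to P21 the dams of the HT-Flx pups drank fluoxetine (0.1 mg/ml) dissolved in 0.2% saccharin, and the dams of the HT-Veh pups drank saccharin alone. All 9 libraries thus share the heterozygous genotype, the saccharin and the age at collection, and the drug had ended at P21. The pups received the drug through the dam, so the dose of each pup was not set directly. Wild-type brains with the same treatments (WT-Flx and WT-Veh) are used only to set the HT difference beside that of the other genotype.

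ARID1B is a DNA-binding subunit of the BAF complex, which moves nucleosomes and so opens or closes regulatory DNA. Fluoxetine blocks the serotonin transporter SLC6A4 and raises serotonin outside neurons. In the first postnatal weeks of the mouse, synapses form and serotonin is known to act on that process. Class IIa histone deacetylases such as HDAC4 repress MEF2 transcription factors, which control synaptic genes.

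*Arid1b* itself checked the labels. Its normalized counts were 2164, 2554, 2172, 2616 and 2356 in HT-Flx replicates 1 to 5, and 2342, 1973, 2480 and 2227 in HT-Veh replicates 1, 3, 4 and 5. The groups overlapped, with a log2 fold change of HT-Flx over HT-Veh of 0.073 (SE 0.13), given as a description because the values of this gene decided which libraries were left out. The library labelled HT-Veh replicate 2 held 3361 and the library labelled WT-Veh replicate 2 held 2320, while the other 9 WT libraries held 2961 to 3392. Both went against their labels and were left out of the comparisons. With the library labelled HT-Veh replicate 2 kept, the log2 fold change of *Arid1b* was −0.043.

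In the main test, which did not pair libraries by replicate number, no gene passed between HT-Flx and HT-Veh brain after adjustment. The count differed with the replicate number as a block, which is given in the last section. Of 17678 tested genes 0 (0%) passed an adjusted p of 0.05, and the lowest adjusted p was 0.264 (limma with Benjamini-Hochberg adjustment). At an unadjusted p under 0.05 there were 3228 genes (18.3%), of which 1333 (7.54%) were higher and 1895 (10.7%) lower in HT-Flx. The median log2 fold change over all tested genes was 0.030. With all 5 HT-Veh libraries 0 genes passed as well (limma, lowest adjusted p = 0.215), with 4082 at an unadjusted p under 0.05.

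The count depended on single libraries. Without HT-Veh replicate 1, 595 genes passed, 21 higher and 574 lower, and after correction for GC content and length none did without that library (limma, lowest adjusted p = 0.0689). Without HT-Flx replicate 2 the gene past the threshold was *Yy2*, and without HT-Veh replicate 3 it was *Gm38317*, both named after their values were seen. *Yy2*, an intronless relative of the zinc finger gene *Yy1*, was listed at 0, 27.7, 0, 0 and 0 in HT-Flx 1 to 5 and at 23.9, 29.9, 29.1 and 34.5 in HT-Veh 1, 3, 4 and 5. *Gm38317* was listed at 0 in every HT-Flx library and at 37.1, 0, 22.9 and 25.9 in HT-Veh. Each thus had 1 library on the other side, and reads of *Yy2* may be shared with *Yy1*.

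Libraries differed from each other along the G and C content of genes. For each library, the deviation of every gene from its mean over the 9 libraries was set against the share of G and C in the gene's transcript, and the slope is given (for WT libraries against the same means) in log2 units per 10 percentage points of GC. Slopes of HT-Flx 1 to 5 were 0.459, 0.169, 0.262, 0.070 and 0.049. Slopes of HT-Veh 1, 3, 4 and 5 were 0.181, −0.023, −0.616 and −0.551. All HT-Flx libraries had GC-rich genes high, while the HT-Veh libraries split, with replicate 1 among the HT-Flx values and replicates 4 and 5 far below. Group means were 0.202 ± 0.167 in HT-Flx (SD, n = 5) and −0.252 ± 0.392 in HT-Veh (SD, n = 4). The difference of 0.454 did not pass (two-sided exact permutation test, p = 0.0794, n = 5 and 4, where 0.0159 is the smallest possible). It was 0.599 without HT-Veh replicate 1 (exact permutation test, p = 0.0357, n = 5 and 3), and 0.423 with HT-Veh replicate 2, whose slope was −0.098, included (exact permutation test, p = 0.0397, n = 5 and 5). With each of the other 8 libraries left out in turn it was 0.333 to 0.530 and did not pass (exact permutation tests, p = 0.0857 to 0.179).

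**Figure D1:**
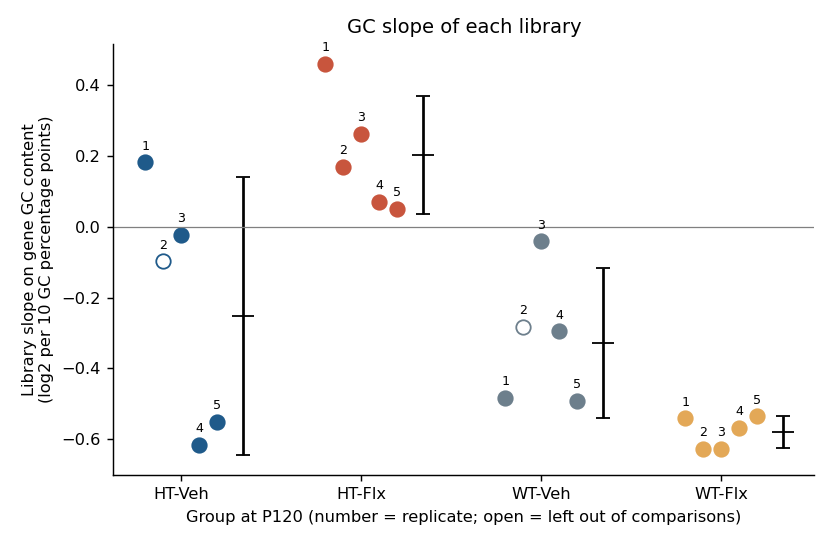
Slope of each P120 library on gene GC content (y axis, log2 per 10 GC percentage points) in 4 groups (x axis). Points are libraries with their replicate numbers, open points were left out of comparisons, and bars are mean and SD of the libraries used. HT-Flx libraries lie between 0.049 and 0.459, HT-Veh between −0.616 and 0.181, and WT-Flx between −0.627 and −0.535.

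The first principal component of the 9 libraries held 45.3% of the variance, and its loadings followed the slopes (r = 0.994 over 9 libraries, a description, since both come from the same values). Genes were then divided into 10 bins of equal size by GC content. In the lowest bin, with 28.7% to 41.2% GC, the median log2 fold change was −0.58, and in the highest, with 58.0% to 78.3% GC, it was 0.38. The medians climbed at each step between. In wild-type mice the corresponding medians were 0.30 and −0.25, so the order ran the other way. After a correction that removed, in each library, the mean deviation of genes of like GC content and length, the medians of the bins lay between −0.015 and 0.033 in HT mice. The first component of the corrected values still held 28.8% of the variance, and its loadings still followed the uncorrected slopes (r = 0.970 over 9 libraries, a description).

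**Figure D2:**
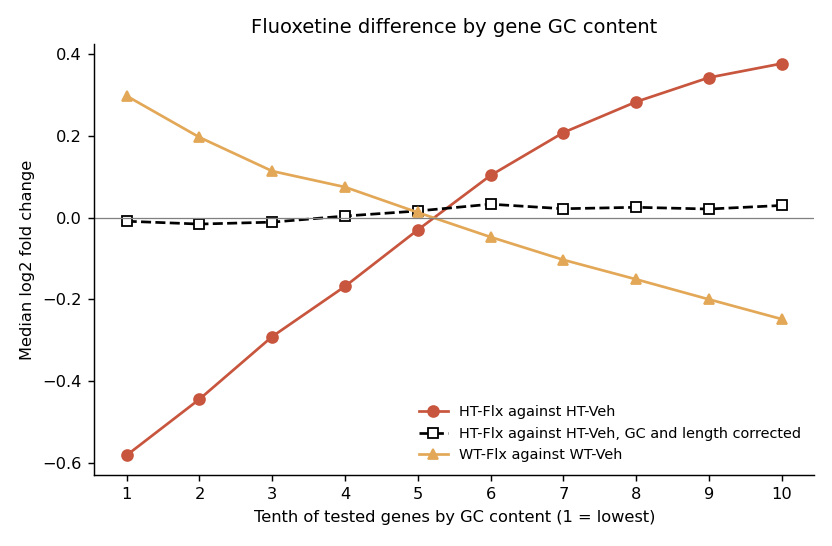
Median log2 fold change of fluoxetine over vehicle (y axis) in 10 bins of tested genes by GC content (x axis, 1 is the lowest), for HT mice before and after GC and length correction and for WT mice. The HT line climbs from −0.58 to 0.38 and the WT line drops from 0.30 to −0.25, while the corrected HT line stays between −0.015 and 0.033.

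With the correction 0 of 17667 genes (0%) passed, and the lowest adjusted p was 0.496 (limma). Genes at an unadjusted p under 0.05 numbered 1776 (10.1%), with 5.36% higher and 4.69% lower. Lower genes outnumbered higher ones before the correction and not after it.

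In 430 genes (2.43%) the HT-Flx and HT-Veh libraries did not overlap. All HT-Flx values were above all HT-Veh values in 267 genes (1.51%) and below them in 163 (0.922%). The median GC content was 54.4% for the higher genes, 44.1% for the lower genes and 49.7% for all tested genes. After the correction 289 genes (1.64%) did not overlap, 138 higher (0.781%) and 151 lower (0.855%). Genes separated in the same direction before and after it numbered 48 higher (0.272%) and 52 lower (0.294%). Were the group labels exchangeable, a gene would separate in either direction with a probability of 0.0159. The corrected share of 1.64% lies near that value, so separation of a single gene is a description only.

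Since no gene passed, the genes described next are those with separated groups, a mean of at least 50 and the smallest p, 10 in each direction. Their values are a description with no test. All 10 lower genes and 8 of the 10 higher genes code for protein, while *Gm5559* is a processed pseudogene and *C130021I20Rik* an antisense RNA. GC content of the longest annotated coding sequence ran from 40.6% to 48.5% in the lower genes and from 54.5% to 60.7% in the higher ones. The 120 bases at the centre of the longest coding exon (all 90 coding bases of it for *Rheb*) are shown for 2 genes of each direction, from the GRCm38 annotation (GENCODE M21). Apart from genes on chromosomes 8 and 18, they are the higher genes with the most and the lower genes with the least G and C in their coding sequence, shown because GC content ordered the difference, and G and C are in capitals.
Zfp784, higher, chr7:5036013-5036132, minus strand, exon 2 of 2: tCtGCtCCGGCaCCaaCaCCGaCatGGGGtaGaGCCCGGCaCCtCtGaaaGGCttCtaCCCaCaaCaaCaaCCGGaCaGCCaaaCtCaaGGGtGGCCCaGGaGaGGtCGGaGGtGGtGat
Col22a1, higher, chr15:72006845-72006964, minus strand, exon 3 of 64: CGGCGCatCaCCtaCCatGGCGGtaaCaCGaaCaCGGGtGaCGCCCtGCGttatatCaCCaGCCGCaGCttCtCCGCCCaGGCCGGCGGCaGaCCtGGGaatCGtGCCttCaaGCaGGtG
Rheb, lower, chr5:24803667-24803756, minus strand, exon 8 of 8: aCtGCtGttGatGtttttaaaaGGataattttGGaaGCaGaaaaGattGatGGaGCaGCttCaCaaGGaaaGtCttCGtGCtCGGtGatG
Mterf1a, lower, chr5:3891238-3891357, minus strand, exon 2 of 2: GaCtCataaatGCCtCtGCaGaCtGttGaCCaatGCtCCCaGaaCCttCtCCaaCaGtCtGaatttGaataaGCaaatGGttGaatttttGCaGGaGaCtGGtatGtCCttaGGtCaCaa
G and C made up 72 and 77 of the 120 bases in the windows of the higher genes *Zfp784* and *Col22a1*. They made up 36 of 90 bases in *Rheb* and 51 of 120 in *Mterf1a*.

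Among the higher genes, *Wdfy4* (chr14:32959547-33185508), known for antigen cross-presentation by dendritic cells, had the largest log2 fold change. It held 260.4, 188, 268, 222 and 236 normalized counts in HT-Flx 1 to 5, and 146, 102, 145 and 65.7 in HT-Veh 1, 3, 4 and 5. The log2 fold change was 1.09 (SE 0.24), or 2.12-fold, and 0.81 after correction, where the groups overlapped. *Eya2* (chr2:165595032-165771727), a transcriptional coactivator and phosphatase of development, held 374, 262, 332, 394 and 557 in HT-Flx, and 222, 236, 187 and 135 in HT-Veh. Its log2 fold change of 0.96 (SE 0.23) was 0.72 after correction, and its groups stayed apart.

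*Epha2*, a receptor tyrosine kinase for ephrin-A ligands, held 142, 119, 104, 128 and 103 in HT-Flx, and 87.5, 84.6, 43.2 and 62.0 in HT-Veh. Its log2 fold change was 0.81 (SE 0.23) before and 0.45 after correction. *Tmem163*, a zinc transporter of synaptic vesicles, was at 1319 to 1493 in HT-Flx and at 856 to 1162 in HT-Veh, a log2 fold change of 0.51 (0.34 after correction). *Pcdhgb6*, a gamma protocadherin of neuronal self-recognition, held 2172, 2199, 2196, 2089 and 2211 in HT-Flx, and 1726, 1859, 1187 and 1226 in HT-Veh. The HT-Flx values lay close together and the HT-Veh values followed the split of the slopes, with a log2 fold change of 0.56 and of 0.26 after correction.

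The zinc finger genes *Zfp784* and *Zfp516* had log2 fold changes of 0.59 and 0.46, which were 0.45 and 0.19 after correction. *Col22a1*, a collagen of tissue junctions, was at 0.80 and 0.62. *Gm5559* was at 0.74 and 0.64, and *C130021I20Rik* at 0.73 and 0.45. Reads of the pseudogene and of the antisense RNA may belong in part to the genes they copy or overlap.

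Among the lower genes, *Mterf3* and *Mterf1a* belong to 1 family, the mitochondrial transcription termination factors, which bind mitochondrial DNA or RNA. *Mterf3* (chr13:66906968-66933088) held 187, 230.0, 201, 214 and 242 in HT-Flx, and 306, 382, 510.4 and 501 in HT-Veh, a log2 fold change of −0.96 (SE 0.18) that was −0.56 after correction. *Mterf1a* (chr5:3890581-3893933) held 44.3, 39.1, 43.3, 59.6 and 54.8 in HT-Flx, and 69.0, 105, 106 and 148 in HT-Veh, with log2 fold changes of −1.10 (SE 0.24) and −0.60. Both stayed separated after the correction. HT-Veh 1 was the HT-Veh library nearest to HT-Flx in 8 of the 10 lower genes, all but *Cyb5r4* and *Dnah7b*.

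*Trmt13*, a tRNA methyltransferase, held 72.3, 66.7, 75.5, 93.3 and 94.3 in HT-Flx, and 104, 181, 252 and 177 in HT-Veh. Its log2 fold change of −1.09 (SE 0.24) was −0.92 after correction, the smallest shift of the 10 lower genes, and its groups stayed apart. *Synpr*, a membrane protein of synaptic vesicles, held 1397, 1597, 1529, 1761 and 1539 in HT-Flx, and 1873, 2533, 2798 and 2815 in HT-Veh. Here the log2 fold change of −0.66 (SE 0.15) was −0.085 after correction. Its transcript had the lowest GC content of the 20 genes, 38.9%, although its coding sequence, at 48.5%, had the highest of the 10 lower genes.

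*Rheb* (chr5:24802823-24842624), the small GTPase that activates mTORC1, was at 1819 to 2267 in HT-Flx and at 2534 to 3346 in HT-Veh, a log2 fold change of −0.61 that was −0.32 after correction. *Cyb5r4*, a cytochrome b5 reductase, was at −0.57 and −0.17, and *Dcaf13*, a nucleolar protein of ribosomal RNA processing, at −0.82 and −0.17. *Spryd7* was at −0.72 and −0.32. *Ccdc39* and *Dnah7b*, which serve the axoneme of motile cilia, were at −1.18 and −1.17, and at −0.61 and −0.76 after correction. In *Ccdc39* the HT-Veh values were 272, 376, 767 and 581, so replicates 4 and 5 lay farthest from the HT-Flx range of 164 to 237. After correction the groups overlapped for the higher genes *Wdfy4*, *Gm5559*, *Col22a1*, *C130021I20Rik* and *Zfp516*. They also overlapped for the lower genes *Cyb5r4*, *Rheb*, *Ccdc39*, *Dnah7b*, *Synpr* and *Dcaf13*. Before correction and with HT-Veh 2 counted, 6 of the 20 genes no longer had separated groups, namely *Wdfy4* (217), *Gm5559* (199), *Tmem163* (1340), *Mterf1a* (56.6), *Rheb* (2154) and *Dnah7b* (184).

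**Figure D3:**
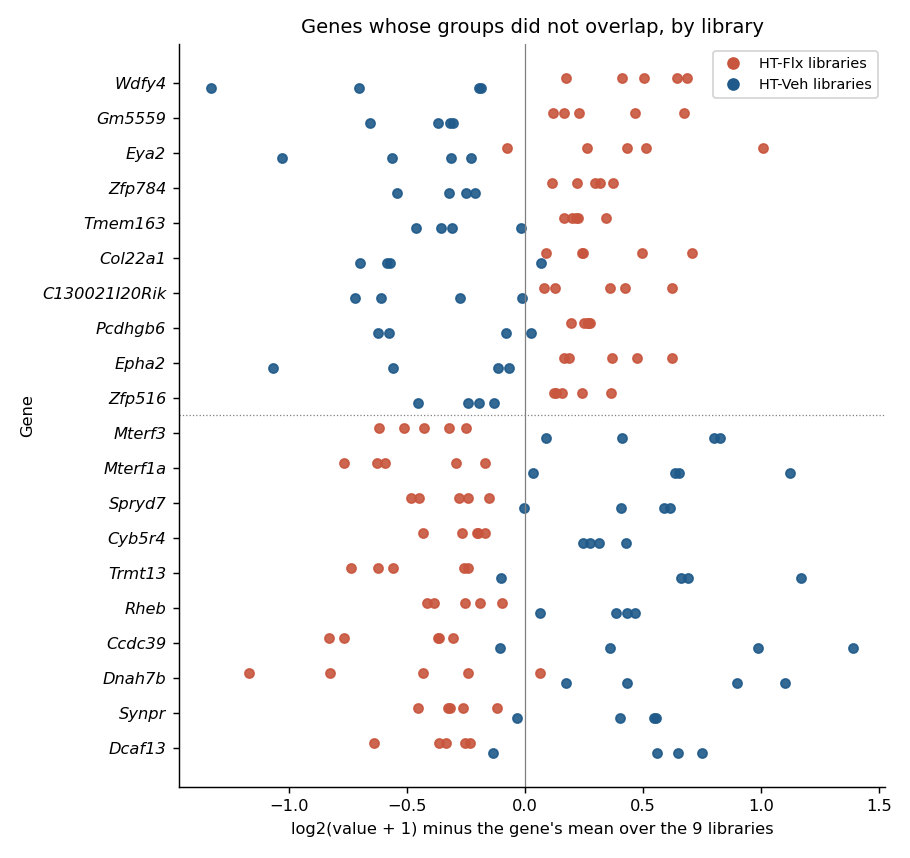
Values of the 20 genes with separated groups as log2(value + 1) minus the gene's mean over the 9 libraries (x axis), 1 line for each gene (y axis), each point a library. HT-Flx and HT-Veh points do not overlap for any gene because the genes were chosen for that; for *Wdfy4* they stand for 188 to 268 and 65.7 to 146 normalized counts.

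Genes of the serotonin system were set by name, since fluoxetine acts on it. *Slc6a4*, the transporter that the drug blocks, held 205, 527, 327, 273 and 657 in HT-Flx, and 236, 257, 271 and 247 in HT-Veh. The HT-Veh values were close together and the HT-Flx values lay on both sides of them, with a log2 fold change of 0.53 (SE 0.29, limma, adjusted p = 0.275; exact permutation test, p = 0.19, n = 5 and 4) and of 0.32 after correction. *Tph2*, which makes serotonin in neurons, held 115, 256, 176, 273 and 348 in HT-Flx, and 133, 226, 354 and 262 in HT-Veh. The groups overlapped, with a log2 fold change of −0.074 (SE 0.33, limma, adjusted p = 0.896; exact permutation test, p = 0.873, n = 5 and 4) whose sign turned under the correction (0.090). HT-Flx 5, the highest HT-Flx library for both genes, also had the highest mean of the cerebellar markers and the lowest of the striatal ones (below). Both transcripts are made by a small group of raphe neurons, and in whole brain fewer cells of a type and less RNA per cell cannot be told apart.

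The 11 tested genes of serotonin synthesis, transport and breakdown had a median log2 fold change of 0.26, with 6 above 0 and 5 below, beside 0.030 over all genes, and of 0.099 after correction. *Maoa*, an oxidase that breaks serotonin down, was at −0.61 before and −0.061 after correction, with a transcript of 40.4% GC. The list also holds *En1*, a transcription factor of midbrain and hindbrain neurons, which was at 0.59 and 0.29.

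Of 12 serotonin receptor genes, 5 were above 0 and 7 below, with a median of −0.14 that became 0.022 after correction. *Htr2a*, an excitatory receptor of cortical neurons, held 274, 379, 293, 559 and 332 in HT-Flx, and 409, 498, 654 and 710.3 in HT-Veh. HT-Flx 4 lay among the HT-Veh values, and the log2 fold change of −0.64 (SE 0.23, limma, adjusted p = 0.264; exact permutation test, p = 0.0635, n = 5 and 4) was −0.16 after correction. *Htr2c* was at −0.41 (limma, adjusted p = 0.264; exact permutation test, p = 0.111, n = 5 and 4) and at 0.033 after correction. *Htr1a*, an inhibitory receptor, held 647, 818, 742, 661 and 718 in HT-Flx, and 821, 512, 514 and 560.2 in HT-Veh. HT-Veh 1 stood above every HT-Flx library, and the log2 fold change of 0.28 (limma, adjusted p = 0.297; exact permutation test, p = 0.111, n = 5 and 4) was 0.28 after correction. *Htr1b* was at −0.32 (limma, adjusted p = 0.395; exact permutation test, p = 0.317, n = 5 and 4) and at −0.036 after correction.

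*Hdac4*, the class IIa deacetylase, was higher in every HT-Flx library than in any HT-Veh library. It held 3524, 4121, 3536, 3321 and 3694 in HT-Flx (mean 3639 ± 300.1, SD, n = 5), and 2967, 2785, 2464 and 2412 in HT-Veh (mean 2657 ± 264, SD, n = 4). The log2 fold change was 0.45 (SE 0.13, limma, adjusted p = 0.264). The paper singled out *Hdac4* from P120 whole-brain libraries of these same groups, as the strongest contributor to an enrichment of targets of the fragile X protein FMRP. The values of *Hdac4* are therefore given as a description. After the correction it was 0.28 (SE 0.091, limma, adjusted p = 0.496) and the groups overlapped. HT-Veh 2, left out, held 3008, below every HT-Flx library, and WT-Flx libraries held 2035 to 3042. In wild-type mice the log2 fold change was −0.20 (SE 0.12), and the HT and WT values differed by 0.65 (SE 0.17, limma interaction). After correction the WT value was −0.091 and the difference 0.36.

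*Mef2a* held 1709, 2770, 1827, 3286 and 2839 in HT-Flx, and 2529, 2970, 5215 and 4539 in HT-Veh. HT-Veh 1 and 3 lay inside the HT-Flx range and HT-Veh 4 and 5 above it. The log2 fold change of −0.60 (SE 0.26, limma, adjusted p = 0.264; exact permutation test, p = 0.127, n = 5 and 4) was −0.12 after correction and 0.057 with the library slope as a covariate. *Mef2c* was at −0.51 and at 0.15 after correction. *Arc*, an activity-induced gene of the synapse, held 9303, 12983, 8748, 8784 and 4718 in HT-Flx, and 8588, 10074, 3972 and 5571 in HT-Veh. The groups overlapped widely, with a log2 fold change of 0.36 (SE 0.31, limma, adjusted p = 0.441; exact permutation test, p = 0.365, n = 5 and 4) and of −0.0013 after correction. The 9 tested genes of class IIa deacetylases, MEF2 factors and their synaptic targets had a median of 0.29, and of −0.0013 after correction.

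**Figure D4:**
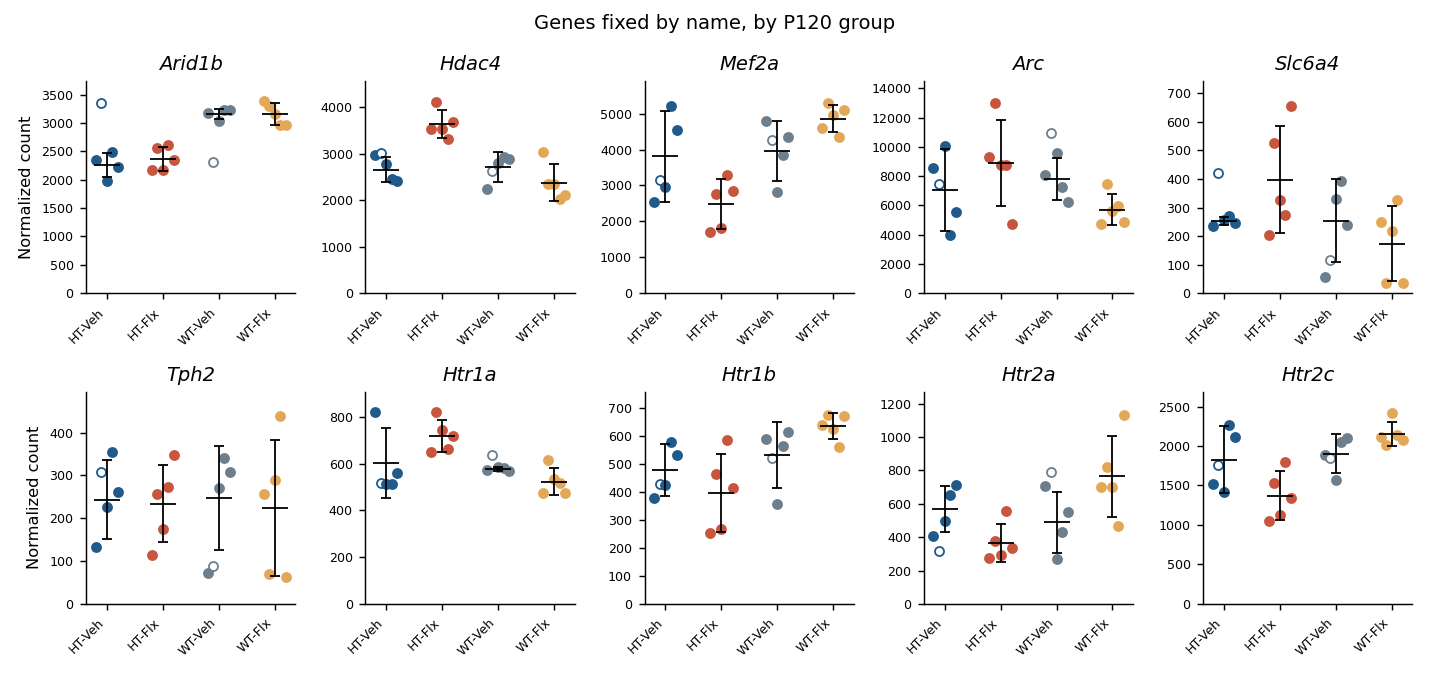
Normalized counts (y axis, from 0) of the 10 genes set by name in 4 P120 groups (x axis). Points are libraries in order of replicate number, open points are the 2 libraries left out, and bars are mean and SD of the others. For *Hdac4* all HT-Flx points (3321 to 4121) lie above the HT-Veh points (2412 to 2967), while for *Arc* and *Tph2* the groups overlap.

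Genes of inhibitory synapses had the list median farthest from 0. Of 18 tested genes for GABA-A receptor subunits and GABA synthesis, 14 were below 0 and 4 above, with a median log2 fold change of −0.52, and at an unadjusted p under 0.05, 2 were higher and 7 lower (7.54% and 10.7% of all genes). The median GC content of the list was 43.0%, and after correction its median was −0.070, with 0 higher and 4 lower (5.36% and 4.69% of all genes). *Gabrg1*, a gamma subunit gene, held 326, 412, 258, 431 and 328 in HT-Flx, and 377, 1019, 875 and 815 in HT-Veh. HT-Veh 1 lay within the HT-Flx range and the other HT-Veh libraries far above. The log2 fold change of −1.06 (SE 0.27) was −0.49 after correction, where the groups were separated. *Gabrd*, the extrasynaptic delta subunit gene, with a GC-richer transcript (54.7% against 35.3% for *Gabrg1*), was at 0.48 and 0.24.

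Genes of excitatory synapses and transmitter release lay on both sides of 0. Of 24 ionotropic glutamate receptor genes and partners, 14 were above 0 and 10 below, with a median of 0.090 and of 0.028 after correction. The GC-poor transcripts of *Gria2* and *Gria3*, AMPA receptor subunits, were at −0.88 and −0.73, and at −0.21 and −0.090 after correction. The 36 postsynaptic scaffold and adhesion genes had a median of 0.083, with *Homer3*, a scaffold, at 0.63 and *Lrrtm2*, an adhesion protein, at −0.78, which were 0.28 and −0.14 after correction.

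The 36 genes of presynaptic release had a median of 0.26, with 23 above 0, and of −0.015 after correction. *Cplx1*, a complexin, was at 0.48 and 0.16, while *Vamp1*, a vesicle SNARE, was at 0.43 and 0.62. Of 114 transcripts from a set bound by the fragile X protein FMRP, 12 were higher and 4 lower at an unadjusted p under 0.05 (7.54% and 10.7% of all genes), with a median of 0.16, and 7 and 7 after correction (5.36% and 4.69% of all genes), with a median of −0.013. *Map1a*, a microtubule-associated protein of neurons, held 87756, 92848, 83126, 94811 and 83974 in HT-Flx, and 77154, 77151, 45711 and 50221 in HT-Veh. Its groups were separated before and after correction, at log2 fold changes of 0.54 (SE 0.19) and 0.27.

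**Figure D5:**
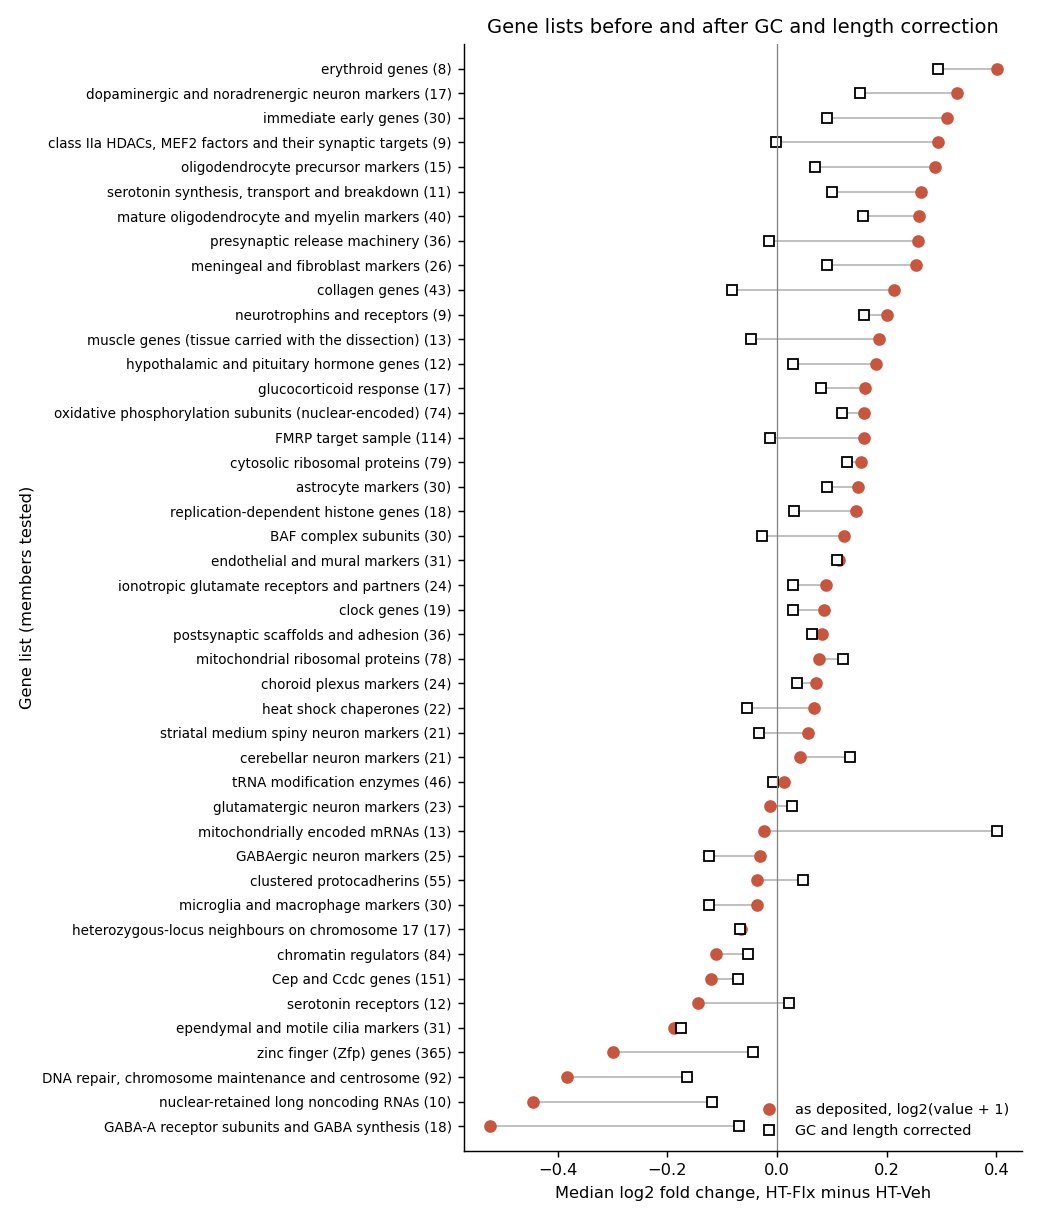
Median log2 fold change of HT-Flx over HT-Veh (x axis) for 44 gene lists (y axis, number of members tested in parentheses), before correction (filled circles) and after GC and length correction (open squares). Medians before correction run from −0.52 to 0.40, and 13 of the 44 change sign with the correction.

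Partners of ARID1B were divided in direction. Of 30 BAF subunits, 19 were above 0, with a median of 0.12 and of −0.027 after correction. *Ss18*, a BAF subunit, held 482, 624, 483, 777 and 574 in HT-Flx, and 649.5, 773, 1651 and 1308 in HT-Veh. HT-Veh 4 and 5 lay above all others, and the log2 fold change of −0.82 (SE 0.26) was −0.53 after correction. *Phf10*, a subunit of the related PBAF form, was at −0.43 (−0.030 after correction). The 84 other chromatin regulators had a median of −0.11 and of −0.052, with the H3K9 methyltransferase gene *Suv39h2* at −0.63 (−0.19 after correction) and *Smarca5*, an ISWI remodeller, at −0.85 (−0.20 after correction). Genes near *Arid1b* on chromosome 17 (17 tested) had medians of −0.066 and −0.068, with *Zdhhc14* at 0.39 (0.033 after correction) and *Dynlt1a* at −0.37 (−0.19 after correction).

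Of 18 tested replication-dependent histone genes, 4 were higher and 0 lower at an unadjusted p under 0.05, where 7.54% of all genes were higher and 10.7% lower, and 5 and 0 after correction (5.36% and 4.69% of all genes). The list had 12 genes above 0 and 6 below, with a median of 0.14 and of 0.030 after correction. *Hist2h2aa1*, an H2A gene, held 286, 343, 324, 426 and 218 in HT-Flx, and 184, 275, 114 and 147 in HT-Veh. HT-Flx 5 lay below HT-Veh 3, and the log2 fold change was 0.86 (SE 0.26) and 0.68 after correction. *Hist1h1c*, a linker histone, was separated at 664 to 903 in HT-Flx and 432 to 634 in HT-Veh, with log2 fold changes of 0.54 and 0.29. *Hist2h2be*, an H2B gene of 45.3% GC, was also separated both times, at 0.43 and 0.68. Histone genes of 1 type are nearly alike and share reads, and most of their transcripts lack the poly-A tail on which these libraries were selected.

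Genes of DNA repair, chromosome maintenance and the centrosome were mostly below 0. Of 92 tested, 74 were below 0, with a median of −0.38, and at an unadjusted p under 0.05, 0 were higher and 27 lower (7.54% and 10.7% of all genes). After correction the median was −0.16, with 1 higher and 13 lower (5.36% and 4.69% of all genes), and with the library slope as a covariate the median was 0.0022. *Cep57*, a centrosome protein, held 171, 234, 155, 232 and 213 in HT-Flx, and 214, 389.8, 450.3 and 473 in HT-Veh. HT-Veh 1 lay within the HT-Flx range, and the log2 fold change of −0.88 (SE 0.24) was −0.48 after correction. *Fancm*, a DNA translocase of the Fanconi anaemia pathway, was at −1.02 (SE 0.30) and −0.61.

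Zinc finger genes named Zfp (365 tested, median GC content 44.1%) had a median of −0.30, with 251 below 0, and of −0.044 after correction. *Zfp953*, a low gene at 5.9 to 19.7 in HT-Flx and 18.3 to 37.6 in HT-Veh, was at −1.35 (−0.77 after correction). Cep and Ccdc genes (151) had medians of −0.12 and −0.072. Enzymes of tRNA modification (46), the list of *Trmt13*, had 0.012 and −0.0073, and *Osgepl1* was at −0.73 (−0.18 after correction). The 10 tested nuclear long noncoding RNAs had −0.44 and −0.12, with 9 below 0 before correction. *Rian*, an imprinted noncoding RNA, was at −0.63 (0.051 after correction) and *Snhg11* at −0.56 (−0.28 after correction).

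Mitochondrial and ribosomal genes depended on the correction in another way. The 13 mitochondrially encoded mRNAs had a median of −0.024 before and 0.40 after correction, and of −0.22 with the library slope as a covariate. Mitochondrial genes made up 8.32% of all values in HT-Veh 3 and 3.93% to 5.41% in the other 8 libraries. *mt-Atp6*, an ATP synthase subunit, held 100792, 76796, 90790, 89978 and 59079 in HT-Flx, and 47059, 90726, 38366 and 45460 in HT-Veh. HT-Veh 3 lay among the HT-Flx values, and the log2 fold change was 0.65 (SE 0.25) and 0.97 after correction. *mt-Co1*, a cytochrome oxidase subunit, was at −0.66 and −0.35.

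Nuclear-encoded subunits of oxidative phosphorylation (74) had medians of 0.16 and 0.12, cytosolic ribosomal proteins (79) 0.15 and 0.13, and mitochondrial ribosomal proteins (78) 0.077 and 0.12. With the library slope as a covariate these were −0.23, −0.31 and −0.12, so each changed sign. The members of smallest p ran against their lists, with *Ndufs1*, a complex I subunit, at −0.50 (−0.25 after correction), *Uqcrc2*, of complex III, at −0.44 (−0.21 after correction), *Rpl5* at −0.87 (−0.44 after correction), *Mrpl50* at −0.68 (−0.25 after correction) and *Mrps22* at −0.57 (−0.54 after correction). *Rps4x*, a protein of the small ribosomal subunit, held 3913, 3643, 3790, 3533 and 4234 in HT-Flx, and 4345, 8455, 4442 and 5146 in HT-Veh. It was separated before and after correction, at −0.50 (−0.44 after correction), with HT-Veh 3 far above the others. Summed values of the cytosolic ribosomal genes were 441460 to 650050 in HT-Flx and 326313 to 700286 in HT-Veh, with the HT-Veh libraries on both sides of the HT-Flx range.

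Markers of the cell types of the brain were counted in the same way. Of 40 markers of mature oligodendrocytes and myelin, 11 were higher and 2 lower at an unadjusted p under 0.05 (7.54% and 10.7% of all genes), with a median of 0.26, and 10 and 1 after correction (5.36% and 4.69% of all genes), with a median of 0.16. Their summed values were 370738 to 408353 in HT-Flx and 304133 to 373263 in HT-Veh, and none was at 0 in all libraries. *Myrf*, the transcription factor of myelination, held 5166, 5837, 4689, 5609 and 5200 in HT-Flx, and 4362, 4864, 2723 and 2800 in HT-Veh. HT-Veh 3 lay within the HT-Flx range and HT-Veh 4 and 5 far below, with a log2 fold change of 0.57 (SE 0.19) and of 0.23 after correction. *Fa2h*, an enzyme of myelin lipids, was separated at 0.39 and overlapped after correction, at 0.15. *Mbp*, the myelin basic protein gene, was at 0.43 and 0.31, while *Ermn* was at −0.85 and −0.28.

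Of 30 microglia and macrophage markers, 7 were lower and 0 higher at an unadjusted p under 0.05 (10.7% and 7.54% of all genes), and 5 and 0 after correction (4.69% and 5.36% of all genes), with medians of −0.036 and −0.12. Their summed values overlapped, at 17602 to 26199 in HT-Flx and 18323 to 25952 in HT-Veh, and none was at 0 in all libraries. *P2ry12*, a purinergic receptor of resting microglia, held 417, 385, 408, 502 and 399 in HT-Flx, and 422, 1056, 889 and 825 in HT-Veh. HT-Veh 1 lay within the HT-Flx range, and the log2 fold change of −0.85 (SE 0.23) was −0.38 after correction. *Siglech* was separated, at 142 to 185 in HT-Flx and 229.7 to 296 in HT-Veh, with −0.54 and −0.29.

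Astrocyte markers (30) had medians of 0.15 and 0.091, endothelial and mural markers (31) 0.11 and 0.11, and oligodendrocyte precursor markers (15) 0.29 and 0.069. Among them were the astrocyte genes *Acsbg1* at 0.51 (0.25 after correction) and *Cbs* at 0.38 (0.31 after correction), and the precursor genes *C1ql1* at 0.55 (0.21 after correction) and *Neu4* at 0.45 (0.45 after correction). The endothelial gene *Itm2a* was at −0.81 (−0.38 after correction). *Kcnj8*, a potassium channel of pericytes, held 143, 160.3, 137, 118 and 148 in HT-Flx, and 86.6, 87.4, 99.0 and 112 in HT-Veh, and was at 0.55 (0.40 after correction). Its groups were separated before correction and overlapped after it.

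Ependymal and motile cilia markers (31) had −0.19 and −0.18. At an unadjusted p under 0.05, 0 were higher and 2 lower (7.54% and 10.7% of all genes), and 0 and 4 after correction (5.36% and 4.69% of all genes). *Spef2*, a sperm flagellum and cilia gene, held 13.5, 30.8, 25.0, 46.0 and 46.4 in HT-Flx, and 40.9, 80.9, 97.8 and 82.5 in HT-Veh. HT-Veh 1 lay within the HT-Flx range, and *Spef2* was at −1.25 (−0.76 after correction). *Cfap43*, of the axoneme, was at −0.57 (−0.29 after correction). Choroid plexus (24), meningeal (26), erythroid (8) and muscle (13) genes had 0.071, 0.25, 0.40 and 0.19 before correction, and 0.036, 0.091, 0.29 and −0.047 after it. *Prlr*, the prolactin receptor, held 60.2, 103, 58.3, 182 and 131 in HT-Flx, and 137, 222, 551 and 262 in HT-Veh, and was at −1.40 (−0.72 after correction). HT-Veh 4 was far above the rest. *Kcne2* was at −0.39 (−0.16 after correction), *Col1a1* at 0.46 (0.075 after correction), *Fmod* at 0.58 (0.33 after correction), *Hba-a2* at 0.65 (0.37 after correction), *Actn3* at 0.83 (0.50 after correction) and *Des* at 0.56 (0.23 after correction).

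Glutamatergic (23) and GABAergic (25) neuron markers had medians of −0.012 and −0.030 before and 0.027 and −0.12 after correction. *Slc17a8*, the vesicular glutamate transporter VGLUT3, held 63.2, 89.9, 46.4, 98.1 and 49.1 in HT-Flx, and 104, 103, 142 and 106 in HT-Veh. *Slc17a8* and *Chodl*, a marker of a rare interneuron class, were separated before correction only, at −0.76 (−0.47 after correction) and −0.73 (−0.34 after correction). *Foxp2* was at −0.73 (−0.23 after correction) and *Vip*, a neuropeptide of interneurons, at −0.92 (−0.42 after correction). Striatal (21), cerebellar (21) and dopaminergic or noradrenergic (17, cholinergic genes among them) markers had 0.057, 0.041 and 0.33, and −0.033, 0.13 and 0.15 after correction. In each of the striatal and cerebellar lists, 13 markers were above 0 and 8 below before correction. HT-Flx 5 stood apart from the other libraries in both lists. Its mean log2 value was 10.3 over the striatal list, against 10.9 to 11.3 in the others. Over the cerebellar list it was 11.8, against 10.7 to 11.2 in the others. The striatal genes *Rarb* and *Tac1* were at −0.74 (−0.58 after correction) and −0.74 (−0.31 after correction), and the cerebellar markers *Grin2c* and *Cbln1* at 0.47 (0.070 after correction) and 0.47 (0.13 after correction). *Lmx1b*, a factor of dopaminergic and serotonergic neurons, was at 0.74 (0.38 after correction), and *Slc5a7*, the choline transporter, at −0.99 (−0.36 after correction).

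Hormone genes (12) had 0.18 and 0.029, and *Gh*, the pituitary growth hormone gene, was listed at 9.85, 1.34, 1007, 34.8 and 971 in HT-Flx and at 0, 0, 0 and 303 in HT-Veh. *Gh* thus varied within both groups, and *Pomc*, another pituitary hormone gene, held 146, 76.2, 209, 115 and 635 in HT-Flx, and 72.1, 117, 55.1 and 95.3 in HT-Veh. The part of tissue makeup in any gene's difference was not tested.

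Of 30 immediate early genes, 23 were above 0, with a median of 0.31, of 0.091 after correction and of −0.055 with the library slope as a covariate. At an unadjusted p under 0.05, 4 were higher and 0 lower (7.54% and 10.7% of all genes), and 2 and 0 after correction (5.36% and 4.69% of all genes). *Gadd45g*, a stress and activity-induced gene, was at 777 to 1013 in HT-Flx and at 470.1 to 741 in HT-Veh. *Klf2*, a Krüppel-like factor, was at 0.74 (0.42 after correction). The groups of *Gadd45g* were separated at 0.55 (SE 0.17) and overlapped after correction, at 0.26. *Npas4*, a neuronal activity-dependent factor, was at 0.74 and 0.38.

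Glucocorticoid-response genes (17) had medians of 0.16 and 0.079, clock genes (19) 0.086 and 0.029, and heat shock chaperones (22) 0.067 and −0.055. The glucocorticoid-induced genes *Ddit4* and *Pdk4* were at 0.63 (0.34 after correction) and 0.41 (0.64 after correction), and the clock genes *Nr1d2* and *Clock* at −0.65 (−0.20 after correction) and −0.86 (−0.18 after correction). *Hsp90aa1*, a heat shock protein, held 11264, 14295, 9448, 19304 and 14222 in HT-Flx, and 11610, 37676, 34852 and 31448 in HT-Veh. HT-Veh 1 lay within the HT-Flx range and the others above it, and *Hsp90aa1* was at −0.98 (−0.59 after correction), beside *Dnaja1* at −0.66 (−0.18 after correction). Among 9 neurotrophin and receptor genes, with medians of 0.20 and 0.16, *Ngfr*, the p75 receptor, was separated at 0.57 and overlapped after correction, at 0.18, and *Sort1* was at 0.30 (0.25 after correction).

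Among 55 tested clustered protocadherins, whose isoforms give neurons a surface identity, 12 were higher and 1 lower at an unadjusted p under 0.05 (7.54% and 10.7% of all genes), although the list median was −0.036. All 12 higher ones belong to the gamma cluster, whose transcripts share constant exons, so that their reads cannot be fully told apart. After correction 5 were higher and 0 lower (5.36% and 4.69% of all genes), and *Pcdhgb1* was at 0.57 (0.35 after correction). Among 43 collagen genes, 10 were higher and 2 lower (7.54% and 10.7% of all genes), with a median of 0.21, and after correction 2 and 2 (5.36% and 4.69% of all genes), with a median of −0.083, and *Col9a2* was at 0.52 (0.17 after correction).

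Wild-type mice gave the other point of comparison. Between WT-Flx (n = 5) and WT-Veh (n = 4), 0 of 17872 genes (0%) passed (limma, lowest adjusted p = 0.196), and 21.2% had an unadjusted p under 0.05, 8.81% higher and 12.4% lower. After correction 0 passed, with 9.67% at an unadjusted p under 0.05, 3.95% higher and 5.72% lower. The interaction, which asks whether the fluoxetine difference is unequal in the 2 genotypes, had 0 of 17789 genes (0%) past the threshold in 18 libraries, with a lowest adjusted p of 0.0576 (limma). At an unadjusted p under 0.05 there were 7312 genes (41.1%), 22.1% with the HT difference above the WT difference and 19% below. After correction 0 passed (limma, lowest adjusted p = 0.164), with 3657 genes (20.6%) at an unadjusted p under 0.05, 11.6% above and 8.98% below.

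The interaction count depended on the libraries and on the slope. Genes past the threshold numbered 7171 without HT-Veh 1, 5538 without HT-Veh 3, 3700 without WT-Veh 1, 2306 without HT-Flx 4 and 4852 with all 20 P120 libraries under their labels. With the library slope as a covariate 0 passed and 769 had an unadjusted p under 0.05.

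The slopes themselves had opposite differences in the genotypes. In WT mice the mean slope was −0.579 ± 0.045 in WT-Flx (SD, n = 5) and −0.327 ± 0.211 in WT-Veh (SD, n = 4), a difference of −0.252 (exact permutation test, p = 0.0159, n = 5 and 4). The HT and WT differences in slope differed by 0.705 (exact permutation test within genotypes over 15876 arrangements, p = 0.00126, n = 5, 4, 5 and 4). That test exchanged treatment labels within each genotype, so its null is no treatment difference in HT or in WT mice. A difference in WT mice alone could give a small p. The test therefore does not decide whether the HT and WT differences are unequal. Several genes described above also had opposite signs. *Mterf3* was at −0.96 in HT and 0.27 in WT mice, *Trmt13* at −1.09 and 0.55, and *Epha2* at 0.81 and −0.55. After correction their WT values were 0.078, 0.47 and −0.36. *Eya2* was at 0.96 and 0.065, and *Wdfy4* at 1.09 and −0.22. These genes were chosen for their HT difference, so no interaction p is given for them. *Htr2a*, set by name, was at −0.64 and 0.67, and its WT value was 0.44 after correction. Its interaction adjusted p of 0.0576 (limma) was the lowest of that fit, shared by other genes. Cerebellar markers had a median of −0.65 in WT and 0.041 in HT mice. The cerebellar gene *Cbln1* held 715 and 1346 in WT-Flx 2 and 5, and 3749 to 6055 in the other WT-Flx libraries. *Htr2a* held 821 and 1134 in WT-Flx 2 and 5, and 467 to 703 in the others. Of the WT-Veh libraries used, WT-Veh 1 had the lowest *Cbln1* (1710) and the highest *Htr2a* (704). The part of tissue makeup in these values was not tested.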

How the data were processed

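Per the methods and labels, the authors selected poly-A RNA of whole brain, sequenced paired ends, quantified reads with Salmon 1.1.0 on GRCm38 with GC bias correction, and normalized with DESeq2 1.30.1. The deposited signal is a normalized count per gene that is not whole, so read depth is unknown, no counting interval is given and no count model was used. Values summed to 37083545 to 41522113 in HT-Flx and 33200684 to 41801037 in HT-Veh. Nothing says that replicates are separate litters, so p measures the spread between these samples.

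Genes with a mean of at least 10 (17678 of 19737) were tested as log2(value + 1) with limma 3.58.1 (R 4.3.3, intensity trend, Benjamini-Hochberg adjustment), after tests on simulated data. Fold changes on this scale understate those of low genes. Exact permutation tests were two-sided. GC content and length came from GENCODE M21, and the correction subtracts each library's mean deviation in 100 bins of GC by length. Symbols matched 99.9% of identifiers. Alternatives changed the pseudocount, filter, scaling, trend, libraries, replicate block, slope covariate and correction.

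Named genes were to be those past the threshold with the largest fold change. As none passed, the 10 of smallest p in each direction with separated groups and a mean of at least 50 stood in, beside genes set by name and, in each list, the 2 members of smallest p, some of which are not reported here. Other list members were named after their values were seen. The members, the 44 lists and the libraries left out were chosen with earlier results of these data known.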

Additional observations from a re-analysis of the deposited data

Results flagged for a closer look

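The difference in library GC slope between fluoxetine and vehicle had opposite signs in the genotypes. The HT difference exceeded the WT difference by 0.705 log2 units per 10 GC points (exact permutation test within genotypes, p = 0.00126, n = 5, 4, 5 and 4). The null of that test is no treatment difference in HT or in WT mice. It therefore does not decide whether the HT and WT differences are unequal. The slopes were above 0 in all 5 HT-Flx libraries and below 0 in all 5 WT-Flx libraries. They were also below 0 in all WT-Veh libraries (−0.491 to −0.041) and in every HT-Veh library but replicate 1 (0.181). Slopes were taken against gene means over the HT libraries compared, so 0 is not a neutral point for WT libraries. The labels used here give no batch or date for these libraries.

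Among 66 groups of 4 or 5 values examined with Dixon's test, 2 held a library far from the others, where chance gives about 1 in 20. *Col22a1* was at 107.9 in HT-Veh 4 and at 63.0 to 68.8 in the other HT-Veh libraries. *Htr1a* was at 821 in HT-Veh 1 and at 512 to 560 in the others.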

How the results depend on the processing

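The number of genes past the threshold was also 0 at pseudocounts of 5 and 0.1, without the filter, at a minimum mean of 100, with median-of-ratios scaling, without the trend, with all P120 groups in 1 fit, with all 5 HT-Veh libraries, with the GC and length correction and with the slope covariate. With 1 library left out it ranged from 0 to 595, and from 0 to 1 when the correction was applied as well, a setting chosen after seeing the data. With the replicate number as a block 1068 genes passed (11 higher, 1057 lower), and with block and correction 2 passed, *Yy2* and *Gm21887*, both lower. Deviations of same-numbered libraries correlated at 0.41, −0.0040, 0.28 and 0.25 for replicates 1, 3, 4 and 5 (mean 0.23, against −0.057 over the 16 other pairs). HT-Flx 1, 4 and 5 correlated best with their own number and HT-Flx 3 with HT-Veh 1. The labels do not say what a number marks, and with 1 pair near 0 the numbers were not taken to pair the samples. For the interaction, 3076 genes passed at a minimum mean of 100, 4852 with all 20 libraries, 0 with the replicate block, and 0 to 7171 with 1 library left out. The slope difference was 0.452 with transcript length as a second term (exact permutation test, p = 0.0476), 0.423 with all 5 HT-Veh libraries, 0.462 with the replicate block (exact permutation test, p = 0.125), and 0.333 to 0.599 with 1 library left out.

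Single genes changed sign as follows, none of them past the threshold. *Arid1b* was at −0.043 with all 5 HT-Veh libraries. With the correction, *Arid1b* was at −0.11, *Arc* at −0.0013, *Tph2* at 0.090 and *Htr2c* at 0.033, and with correction and replicate block at −0.12, −0.14, 0.046 and 0.00081. With the slope covariate, *Mef2a* was at 0.057, *Arc* at −0.26, *Tph2* at 0.75, *Htr1b* at 0.17 and *Htr2c* at 0.012. *Tph2* ranged from −0.34 to 0.16 with 1 library left out, with 0.16, 0.0034 and 0.13 without HT-Flx 1, HT-Flx 3 and HT-Veh 4. Of 44 list medians, 13 changed sign with the correction, 17 with the slope covariate, 5 with all 5 HT-Veh libraries and 2 with the replicate block. The cause of these changes was not tested. The slopes differ between the groups, so a fit with the slope as a covariate also takes away group difference. The GC and length correction does not regard group, so it too takes away any group difference that runs with GC content or length. Depth limits cannot be set without read counts.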
